A study of Saccharomyces cerevisiae with 18 samples.

Results

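The comparison set yeast cells whose only Rad6 carries the P43L substitution (P43L) against yeast cells that lack BRE1 (bre1Δ), across all genes. It used 6 of the 18 libraries of the series, 3 for each strain, chosen by their labels. The P43L cells carry a deletion of the chromosomal RAD6 gene, rad6Δ::KanMX, and a TRP CEN plasmid that supplies rad6P43L-3V5, an allele with an epitope tag. The bre1Δ cells carry bre1Δ::KanMX and the empty TRP CEN plasmid pRS314, and they keep their own untagged chromosomal RAD6. Another strain, called WT here, carries rad6Δ::KanMX and a plasmid with wild-type Rad6-3V5, and its 3 libraries are given beside the other values for orientation. A further strain, labelled rad6Δ, is given at PTR2 and TRP1 only. Its 3 libraries had 32, 50 and 35 counts of RAD6. All strains are labelled Mat a with the markers ura3-52, leu2 (alleles 3 and 112), his3 and trp1Δ, and all were grown at 30 °C in medium lacking tryptophan, which keeps the plasmid in the cells. P43L and bre1Δ therefore differ in the residue of Rad6, in BRE1, and in the source, tag and plasmid of RAD6, and the effects of these cannot be told apart in this comparison. The protocols give more than a single culture density at harvest, so the density of these cultures is not settled. The cultures of a strain were grown, extracted and sequenced separately, per the labels.

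Rad6 is a ubiquitin-conjugating enzyme, an E2. With the ligase Bre1 it places a single ubiquitin on histone H2B in the bodies of transcribed genes, a step needed for methylation of histone H3 by the Set1 complex and by Dot1. With the ligase Ubr1 it marks proteins with destabilizing N-terminal residues for the proteasome, and with Rad18 it modifies the DNA clamp at damaged replication forks. A cell without Bre1 lacks the ligase for H2B but keeps the enzyme for the other ligases. A cell with altered Rad6 keeps Bre1 but has a changed enzyme for every ligase. The substitution lies in a beta-turn on the backside of Rad6, away from the catalytic cysteine.

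The reference sequence of the altered stretch shows where the substitution falls. Codons 36 to 56 of RAD6 lie at chrVII:394091-394153 on the plus strand of R64, inside the single coding exon of the gene. The line gives the reference DNA, with the codons for residues 43, 47 and 49 in capitals, counted from the start codon. Codon 43 is the residue changed in P43L, and the other capitals mark P47T and E49K, which other strains of the series carry.
RAD6 codons 36 to 56: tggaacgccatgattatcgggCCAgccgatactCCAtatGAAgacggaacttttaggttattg

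The deleted gene followed the labels. BRE1 (chrIV:324047-326149, minus strand) had 1241, 1034 and 1258 counts in the P43L libraries, against 15, 11 and 9 counts in the bre1Δ libraries. RAD6 was read in all 6 libraries, with 124, 145 and 111 CPM (counts scaled to a common library total) in P43L, against 106, 104 and 93.4 CPM in bre1Δ. The scaling used the TMM-corrected library total. The RAD6 values did not overlap, and the log2 fold change of P43L over bre1Δ was 0.32 ± 0.09 (standard error, n = 3 per strain; adjusted p = 0.00771, edgeR quasi-likelihood test), a call lost when P43L replicate 2 and bre1Δ replicate 3 were left out together. RAD6 in WT had 157, 147 and 143 CPM.

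The genes beside RAD6 on chromosome VII were not alike in P43L, bre1Δ and WT. Of these strains, P43L and WT have the chromosomal RAD6 replaced by the KanMX marker, and bre1Δ does not. GEP7, which lies next to RAD6, had 26.5, 41.3 and 29.4 CPM in P43L, against 15.8, 13.2 and 15.4 CPM in bre1Δ and 38.3, 38.6 and 28.6 CPM in WT (log2 fold change of P43L over bre1Δ 1.12 ± 0.17, adjusted p = 2.61e-05). SDS23, the next gene on that side, had 23.4, 20.9 and 21.4 CPM in P43L, against 40.3, 39.0 and 47.2 CPM in bre1Δ and 24.0, 24.0 and 22.2 CPM in WT (-0.93 ± 0.10, adjusted p = 1.63e-07). Both genes had like values in P43L and WT and stood apart in bre1Δ. On the other side YBP2 was higher in P43L by 0.41 ± 0.07 on the log2 scale (adjusted p = 0.000122), and PKP2 did not differ detectably, at -0.03 with a 95% interval from -0.19 to 0.14. The part of the marker in these values was not tested. Beside BRE1 on chromosome IV, the nearest gene on each side was lower in P43L, RPL31A, a ribosomal protein gene, at -0.38 ± 0.08 (adjusted p = 0.000873) and AHK1 at -0.26 ± 0.10 (adjusted p = 0.0331). The next genes out, RXT3 and YET3, were not called, with 95% intervals of the log2 fold change from -0.08 to 0.25 and from -0.16 to 0.13.

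The mating type on the labels did not match the RNA in any of the 6 libraries. MF(ALPHA)1, which encodes the mating pheromone of alpha cells, had 1359, 1467 and 1355 CPM in P43L, against 1356, 1170 and 1122 CPM in bre1Δ. MFA1 and MFA2, the genes for a-factor, had a sum of 5, 4 and 3 counts in P43L, against 5, 5 and 4 counts in bre1Δ. The 5 alpha-specific genes summed to 2493 to 2564 CPM in P43L and 1864 to 2144 CPM in bre1Δ, while the 5 of 7 a-specific genes that passed the filter summed to 36 to 43 CPM in P43L and 37.6 to 43 CPM in bre1Δ. The libraries labelled Mat a thus held RNA of alpha-type mating genes in both strains.

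Library totals ran from 6785538 to 9154092 counts in P43L and from 5654417 to 8720793 in bre1Δ. Of the 5746 genes in the table, 5630 passed the filter on low counts and were tested. Strain accounted for the first component of the 6 libraries, with 66.3% of their variance. Along the second, with 17.7%, P43L replicate 2 and bre1Δ replicate 1 lay apart from the other 4 libraries, and bre1Δ replicate 3 lay furthest the other way. The share of counts in nuclear noncoding genes was 21.7% in the same P43L replicate and 16.6% and 17.3% in P43L replicates 1 and 3, and in bre1Δ it was 21.9%, 17.7% and 20.4%. Where leaving out 1 or 2 libraries moved a count of a gene list by more than 1.5 times, a count without them stands beside it. The pairs of libraries left out together were chosen after the data were seen.

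The strains differed at 2553 genes, 45.3% of those tested (edgeR quasi-likelihood test, Benjamini-Hochberg adjusted p under 0.05). Of these, 1253 (22.3%) were higher in P43L and 1300 (23.1%) were lower in P43L. With library totals alone in place of TMM scaling, 59.6% of the called genes were higher in P43L, against 49.1% with TMM. Most differences were small. The median size over called genes was 0.44 on the log2 scale, and 1528 of them (59.9%) were under 0.5. Only 28 genes (0.497%), the deleted BRE1 among them, were called and at least 2-fold higher in P43L. A further 153 (2.72%) were called and at least 2-fold lower. The 3 P43L values and the 3 bre1Δ values did not overlap at 2706 genes (48.1%), and 2288 genes (40.6%) were both called and without overlap.

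The genes at least 2-fold lower in P43L were weakly expressed ones. Their median level was 3.17 CPM in P43L, against 8.83 CPM in bre1Δ and 3.90 CPM in WT, and 90 of the 153 (58.8%) had a mean under 10 CPM, against 9.40% of all tested genes. The genes at least 2-fold higher in P43L were well expressed, with a median of 105 CPM in P43L, against 33.0 CPM in bre1Δ and 89.9 CPM in WT. In both sets the P43L median lay nearer the WT median than the bre1Δ median did. With genes ranked by mean level in 5 equal bins, the lowest bin held 8.26% called higher and 28.7% called lower, and the middle bin held 29.0% called higher and 18.7% called lower. The highest bin held 23.0% called higher and 28.0% called lower, so the share of lower calls did not fall steadily with level. By length, 14.4% of the shortest bin of nuclear open reading frames were called higher and 23.0% lower, and 25.1% and 18.9% of the longest bin.

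**Figure D1:**
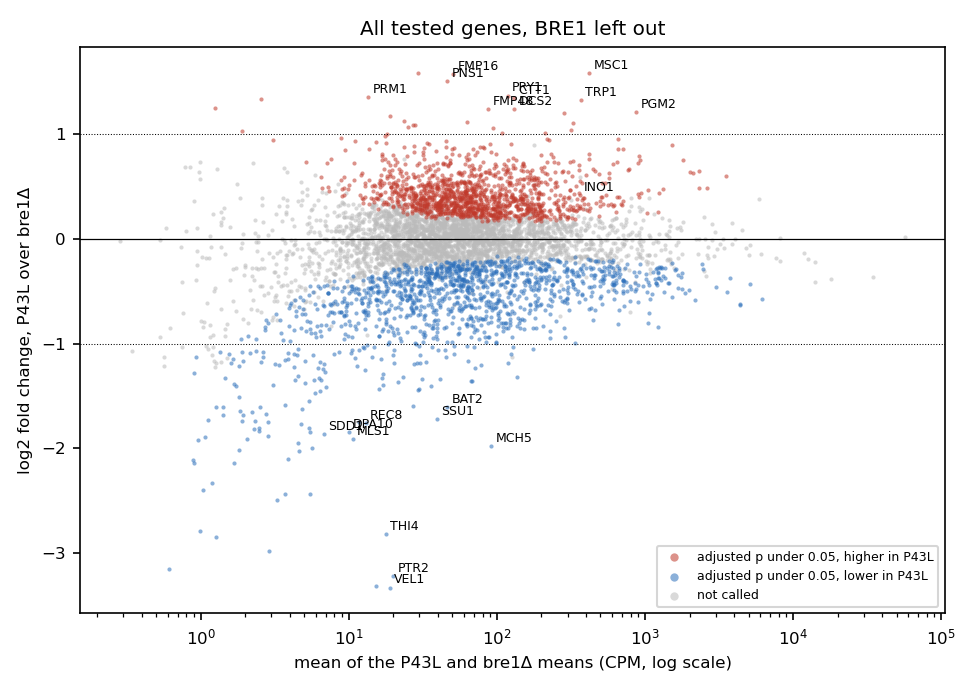
Each point is a tested gene other than BRE1, with the mean of the P43L and bre1Δ mean levels across (CPM, log scale) and the log2 fold change of P43L over bre1Δ up. Coloured points passed the test and dotted lines mark 2-fold. The 153 called genes beyond the lower line sit mostly at low levels, while the called genes beyond the upper line, named ones among them, sit further right.

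Among genes with at least 10 CPM in the higher strain, the 10 furthest below bre1Δ included transporters of peptides, riboflavin and sulfite. PTR2 (chrXI:615730-617535), the importer of di- and tripeptides, had 3.23, 3.11 and 5.02 CPM in P43L, against 33.2, 37.8 and 37.3 CPM in bre1Δ, a 9.34-fold lower level in P43L (log2 fold change -3.22 ± 0.20, adjusted p = 1.78e-10). WT had 2.96, 3.75 and 2.07 CPM, so the P43L and WT values overlapped and bre1Δ stood above both. The strain labelled rad6Δ had 18.2, 12.9 and 16.2 CPM, also above P43L and WT. PTR2 is held down by the repressor Cup9, which Ubr1 and Rad6 mark for degradation. CUP9 RNA itself had 49, 57.1 and 55 CPM in P43L, against 65.4, 49.3 and 50.7 CPM in bre1Δ, and its log2 fold change of -0.04 had a 95% interval from -0.24 to 0.16. UBR1 RNA was not called either, with an interval from 0.01 to 0.35 and an adjusted p of 0.0731.

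VEL1, of unknown function, had 1.5, 4.88 and 4.06 CPM in P43L, against 40.6, 26.4 and 36.9 CPM in bre1Δ. It has the lowest fold change under the naming rule, at -3.33 ± 0.44 on the log2 scale (adjusted p = 3.28e-05), and shares near-identical sequence with YOR387C, so its value is uncertain. THI4, a thiazole synthase of the thiamine pathway, had 4.96, 4.29 and 3.85 CPM in P43L, against 26.1, 29.3 and 38.1 CPM in bre1Δ, 7.05-fold lower in P43L (-2.82 ± 0.16, adjusted p = 2.65e-11). MCH5, the plasma membrane carrier of riboflavin, had 36.7, 39.8 and 34.6 CPM in P43L, against 128, 142 and 168 CPM in bre1Δ (-1.98 ± 0.09, adjusted p = 1.38e-12). In WT, THI4 had 4.82, 6.29 and 5.27 CPM and MCH5 had 34.4, 40.0 and 42.9 CPM. The P43L and WT values overlapped in VEL1, THI4 and MCH5, and bre1Δ stood above both.

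MLS1, the malate synthase of the glyoxylate cycle, had 3.69, 5.77 and 4.17 CPM in P43L, against 16.5, 17.9 and 15.6 CPM in bre1Δ. REC8, the meiotic cohesin subunit, had 5.88, 6.36 and 5.56 CPM in P43L, against 23.7, 18.2 and 18.0 CPM in bre1Δ. SSU1, the sulfite exporter, had 21.4, 17 and 16 CPM in P43L, against 55.3, 57.7 and 67.5 CPM in bre1Δ. P43L and bre1Δ did not overlap in these genes, and their log2 fold changes were -1.91 ± 0.16, -1.76 ± 0.16 and -1.72 ± 0.11 in that order. BAT2, the cytosolic branched-chain aminotransferase, was lower by a similar amount, with 21.7, 22.2 and 24.4 CPM in P43L, against 73.4, 64.8 and 70.5 CPM in bre1Δ (-1.61 ± 0.09, adjusted p = 1.2e-11). SDD1 and DPA10 complete the 10 lowest, at -1.86 ± 0.27 and -1.85 ± 0.20.

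The 10 genes furthest above bre1Δ included several that yeast induces under stress. MSC1 (chrXIII:15135-16676) had 661, 567 and 660 CPM in P43L, against 220, 213 and 197 CPM in bre1Δ, with no overlap (log2 fold change 1.58 ± 0.09, adjusted p = 2.65e-11). CTT1, the cytosolic catalase, had 189, 182 and 194 CPM in P43L, against 87.9, 67.6 and 66.7 CPM in bre1Δ (1.34 ± 0.09, adjusted p = 7.52e-10). PGM2, the main phosphoglucomutase, had 1236, 1175 and 1250 CPM in P43L, against 607, 496 and 482 CPM in bre1Δ (1.21 ± 0.10, adjusted p = 3.74e-09). All 3 had P43L values above every bre1Δ value. CTT1 in WT, at 175, 190 and 175 CPM, overlapped with P43L.

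FMP16, a mitochondrial protein of stress conditions, had 70.9, 87.0 and 71.3 CPM in P43L, against 36.9, 20.9 and 18.6 CPM in bre1Δ (1.57 ± 0.23, adjusted p = 5.70e-05). DCS2, a stress-induced relative of the cap-scavenging enzyme Dcs1, had 178, 188 and 185 CPM in P43L, against 96.3, 72.9 and 64.2 CPM in bre1Δ (1.23 ± 0.12, adjusted p = 2.21e-07). In both genes bre1Δ replicate 1 was the highest of its group and still below every P43L library. PRY1, a secreted sterol-binding protein, stood at 1.37 ± 0.10 and PNS1 at 1.51 ± 0.15. FMP48, which encodes a putative kinase, stood at 1.24 ± 0.09. PRM1, which acts in fusion of mating cells, had 20.9, 18.0 and 19.7 CPM in P43L, against 8.62, 7.07 and 7.31 CPM in bre1Δ (1.35 ± 0.16, adjusted p = 9.21e-07).

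TRP1 is the marker on the plasmids of both strains and encodes an enzyme of tryptophan synthesis. It had 499, 555 and 524 CPM in P43L, against 236, 194 and 199 CPM in bre1Δ and 529, 619 and 546 CPM in WT. P43L was above bre1Δ by 1.32 ± 0.11 on the log2 scale (adjusted p = 4.95e-09), and the P43L and WT values overlapped. The plasmids of P43L and WT carry a RAD6 allele, and that of bre1Δ is empty. The strain labelled rad6Δ, whose plasmid is not described here, had 365, 282 and 379 CPM, below P43L and WT and above bre1Δ. The part of the plasmid in these differences was not tested.

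**Figure D2:**
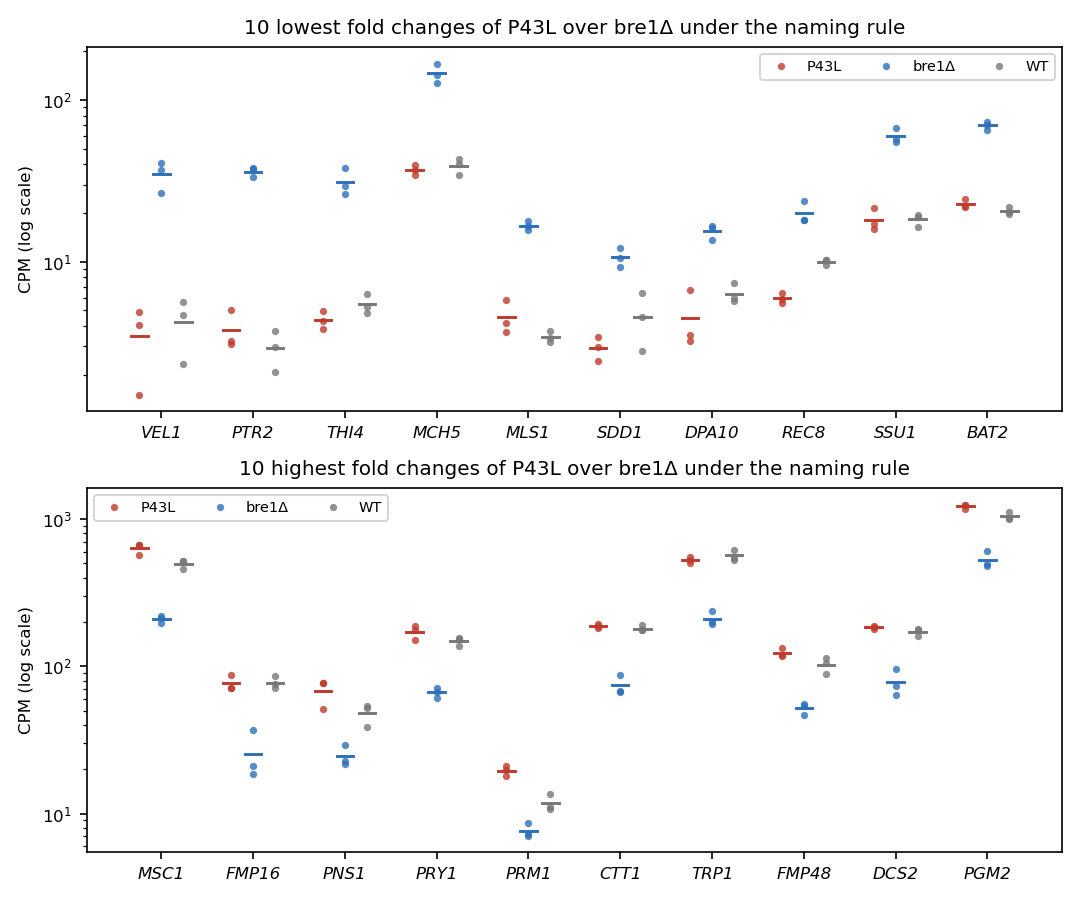
Levels by library (CPM, log scale) for the 10 genes with the lowest and the 10 with the highest fold changes of P43L over bre1Δ under the naming rule. Points are libraries and bars are means of 3. For each gene the P43L and bre1Δ points do not overlap, and WT is drawn for orientation.

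Gene lists were used to describe the rest of the table, and each list is given by the number of tested members that were called and by its median log2 fold change, beside the shares of all tested genes (22.3% higher, 23.1% lower) and their median of -0.01. The lists hold genes of one pathway or role and overlap in part.

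Genes that build ribosomes were lower in P43L than in bre1Δ almost throughout. Of 77 ribosome biogenesis genes, 74 (96.1%) were lower and 0 were higher, with a median log2 fold change of -0.77. All 77 fitted values were below 0. The list's median was -0.20 for P43L over WT and 0.50 for bre1Δ over WT, comparisons that share the WT libraries. BRX1, which acts in the making of the large subunit, had 79.0, 85.6 and 72.8 CPM in P43L, against 172, 178 and 158 CPM in bre1Δ (-1.10 ± 0.08, adjusted p = 1.10e-09). NOP12, a nucleolar RNA-binding protein, had 84.3, 91.6 and 78.7 CPM in P43L, against 171, 176 and 173 CPM in bre1Δ (-1.03 ± 0.08, adjusted p = 2.98e-09). NOP2, an rRNA methyltransferase, and HAS1, a helicase, were lower by 0.94 and 0.85 on the log2 scale. In BRX1, NOP2 and HAS1 every P43L library was below every WT library and every bre1Δ library was above them. NOP12 was the same for bre1Δ, while its P43L and WT values overlapped. By the edgeR test, P43L against WT was called in BRX1 (adjusted p = 0.00825). It was not called in NOP12, NOP2 or HAS1 (adjusted p = 0.0608, 0.0978 and 0.13 in that order).

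Ribosomal protein genes had more lower than higher members as well. Of 139 genes for cytosolic ribosomal proteins, 85 (61.2%) were lower in P43L and 0 were higher, with a median of -0.31. Without bre1Δ replicate 3, 1 was higher, and without P43L replicate 2 as well, 3 were higher. RPS14B, a small-subunit protein, had 68.2, 79.1 and 71.4 CPM in P43L, against 178, 143 and 177 CPM in bre1Δ (-1.18 ± 0.10, adjusted p = 1.05e-08). RPS27A and RPS25B were lower by 0.62 and 0.57 on the log2 scale. Many ribosomal proteins are encoded by near-identical pairs, and how reads shared by a pair were counted is not given in the sources used here. The counts of called genes rested little on single libraries, with 68 to 76 ribosome biogenesis genes and 61 to 81 ribosomal protein genes lower when any 1 of the 6 was left out.

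The start regions of ribosome biogenesis genes carry a pair of known elements, PAC and RRPE, and the search for them was made after the values had been seen. In the 300 bases before the start codon, on either strand, GATGAG (PAC) was present in 92.2% of the 77 ribosome biogenesis genes and in 18.7% of all 5511 windows of tested nuclear reading frames. AAAAATTT (RRPE) was present in 87.0% of the list and in 16.1% of all windows. Both were present in 80.5% of the list and in 6.04% of all windows. Within the list, the median log2 fold change was -0.75 for the 62 genes with both and -0.80 for the others. Outside the list, 271 genes had both, of which 163 (60.1%) were lower in P43L and 11 (4.06%) were higher. Of all tested genes, 23.1% were lower and 22.3% were higher. Genes of ribosome making that the list does not hold may be among the 271. BRX1 and NOP12 are shown because they lead the list. The lines give bases 300 to 101 before the start codon, read toward the gene, from R64. The PAC and RRPE letters or their reverse complements are in capitals. BRX1 is from chrXV:186824-187023 and NOP12 from chrXV:252747-252946, both on the minus strand.
BRX1: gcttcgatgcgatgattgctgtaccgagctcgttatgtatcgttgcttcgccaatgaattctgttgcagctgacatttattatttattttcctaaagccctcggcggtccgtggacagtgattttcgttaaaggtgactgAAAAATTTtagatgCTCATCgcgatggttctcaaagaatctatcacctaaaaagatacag
NOP12: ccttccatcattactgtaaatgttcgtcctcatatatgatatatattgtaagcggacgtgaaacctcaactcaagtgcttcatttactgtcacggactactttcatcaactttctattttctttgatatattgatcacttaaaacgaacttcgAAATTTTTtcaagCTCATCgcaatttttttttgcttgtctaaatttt
In BRX1 the RRPE letters begin at base -160 and the PAC letters at -146, and in NOP12 they begin at -147 and -134. A match to these letters describes the sequence and does not show that a factor binds there.

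Most thiamine genes were lower in P43L. Yeast makes thiamine from a pyrimidine and a thiazole part, and the genes for both parts are switched on together by Thi2, Thi3 and Pdc2. Of 24 tested members of 25, 18 (75.0%) were lower in P43L and 0 were higher, with a median of -1.02. THI2, the activator, had 51.2, 45.9 and 45.5 CPM in P43L, against 114, 107 and 107 CPM in bre1Δ and 79.7, 76.2 and 82.7 CPM in WT (-1.2 ± 0.08, adjusted p = 4.85e-10). THI20, a kinase of the pyrimidine branch, had 113, 116 and 116 CPM in P43L, against 222, 238 and 254 CPM in bre1Δ and 188, 177 and 184 CPM in WT (-1.05 ± 0.07, adjusted p = 7.22e-10). In THI2 and THI20 the P43L values lay below WT and the bre1Δ values above it. SNZ1, of vitamin B6 synthesis, had 61.6, 53.0 and 56.4 CPM in P43L, against 107, 119 and 112 CPM in bre1Δ and 55.4, 59.9 and 56.5 CPM in WT (-0.98 ± 0.07, adjusted p = 1.81e-09). The values of the near-identical genes THI11, THI12, THI13, SNZ2 and SNZ3 are uncertain.

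Most stress and storage carbohydrate genes were higher in P43L. This list covers general stress genes driven by Msn2 and Msn4 and enzymes of trehalose and glycogen. Of 49 genes, 38 (77.6%) were higher and 4 (8.16%) were lower, with a median of 0.61. The list's median was 0.10 for P43L over WT and -0.48 for bre1Δ over WT. Besides MSC1, CTT1 and PGM2, the list holds GLC3, the glycogen branching enzyme, which had 900, 806 and 886 CPM in P43L, against 492, 438 and 412 CPM in bre1Δ (0.95 ± 0.09, adjusted p = 4.81e-08). Chosen after their values were seen, TPS1 and TPS2 of trehalose synthesis were higher by 0.74 and 0.75 on the log2 scale, and the 4 lower members were GRE1, GND2, GLG2 and GPP2. HSP12, a membrane-associated stress protein, was not called, at 0.09.

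The stress element AGGGG, bound by Msn2 and Msn4, was present in 65.3% of the 49 windows and in 22.5% of all windows. Of all genes with it, 35.2% were higher in P43L and 15.2% were lower, and outside the list these shares were 34.0% and 15.3%. Over all tested genes they were 22.3% and 23.1%. The windows of MSC1 (chrXIII:16777-16976, minus strand) and CTT1 (chrVII:654334-654533, plus strand) are shown as the members with the lowest adjusted p. They run from base 300 to base 101 before the start codon, with each AGGGG or its reverse complement in capitals.
MSC1: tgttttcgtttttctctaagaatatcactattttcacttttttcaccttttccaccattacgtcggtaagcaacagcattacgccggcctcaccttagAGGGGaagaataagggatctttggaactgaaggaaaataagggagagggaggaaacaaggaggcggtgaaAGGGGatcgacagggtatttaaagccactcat
CTT1: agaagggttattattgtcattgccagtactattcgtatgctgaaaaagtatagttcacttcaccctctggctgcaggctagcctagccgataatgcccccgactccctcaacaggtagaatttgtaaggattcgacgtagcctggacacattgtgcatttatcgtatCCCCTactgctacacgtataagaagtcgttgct
MSC1 has AGGGG at bases -202 and -132, and CTT1 has its reverse complement at -133.

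**Figure D3:**
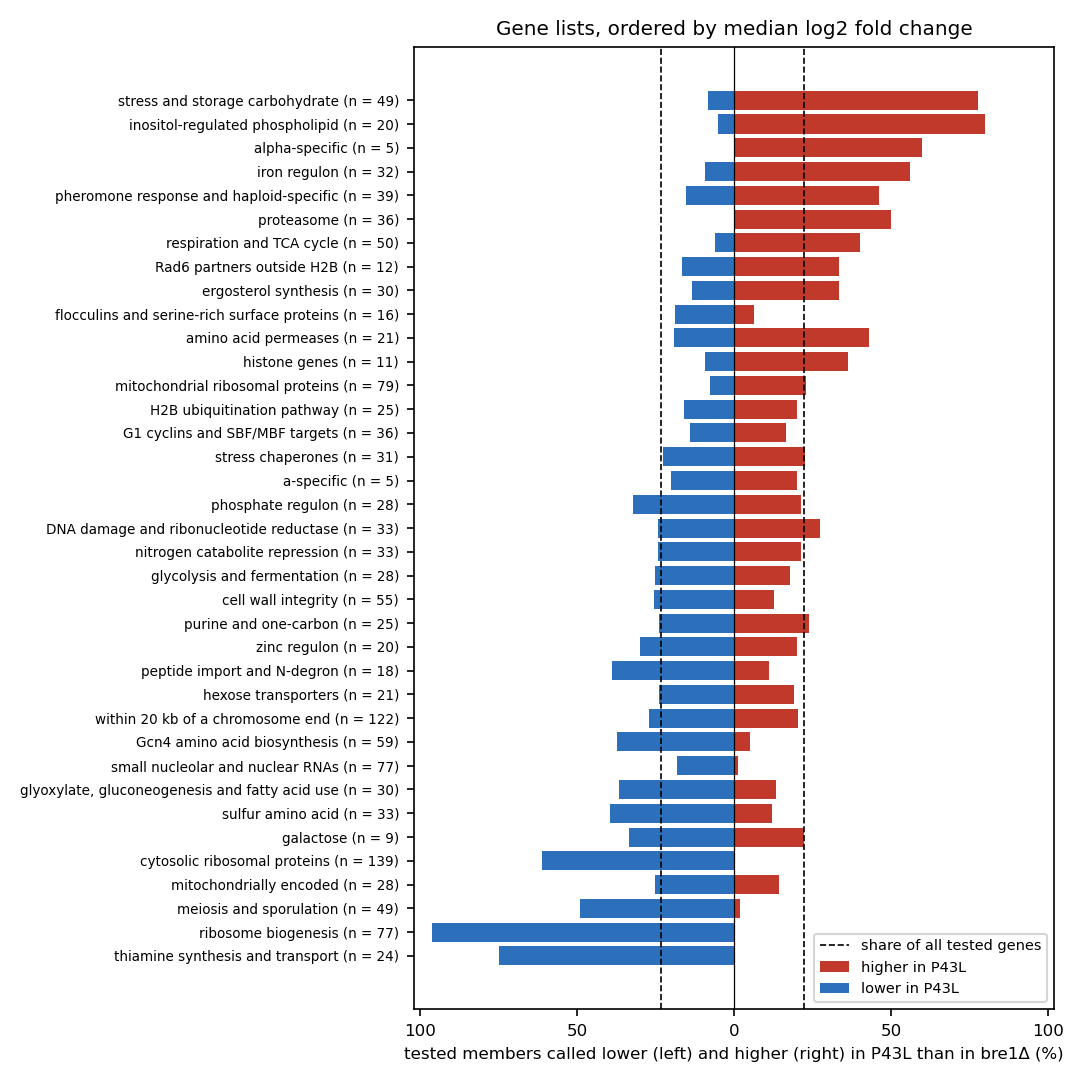
For each gene list, the share of tested members called lower (left, blue) and higher (right, red) in P43L than in bre1Δ, in percent, ordered by median log2 fold change. Dashed lines give the shares over all tested genes, 23.1% lower and 22.3% higher. Thiamine and ribosome genes extend furthest left and stress, storage and inositol genes furthest right.

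Most phospholipid genes under inositol control were higher in P43L, too. They are activated by the pair Ino2 and Ino4 and repressed by Opi1 when inositol is plentiful. Of 20 genes, 16 (80.0%) were higher and 1, INM1, was lower, with a median of 0.51. INM1 lost its call without P43L replicate 3, without bre1Δ replicate 2, and without P43L replicate 2 and bre1Δ replicate 3 together. ITR1, the main inositol transporter, had 2071, 1839 and 2006 CPM in P43L, against 976, 1109 and 1102 CPM in bre1Δ and 2087, 2190 and 2081 CPM in WT (0.89 ± 0.08, adjusted p = 4.76e-08). INO2, the activator, had 32.7, 40.7 and 37.8 CPM in P43L, against 16.8, 18.5 and 16.8 CPM in bre1Δ and 23.0, 21.3 and 19.0 CPM in WT (1.08 ± 0.11, adjusted p = 2.11e-07). ITR1 in P43L was near WT, whereas INO2 in P43L was above WT by 0.79 on the log2 scale (adjusted p = 0.000139). CHO1 and PSD1, which make phosphatidylserine and phosphatidylethanolamine, were higher than in bre1Δ by 0.71 and 0.70.

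INO1, which makes inositol phosphate and is the best known target of Ino2 and Ino4, departed from ITR1 in its relation to WT. It had 442, 357 and 443 CPM in P43L, against 288, 312 and 328 CPM in bre1Δ and 978, 936 and 952 CPM in WT. P43L was above bre1Δ by 0.42 ± 0.10 on the log2 scale (adjusted p = 0.00136), with no overlap. Both strains were below WT, with log2 fold changes of -1.21 for P43L (adjusted p = 1.57e-07) and -1.63 for bre1Δ (adjusted p = 1.16e-10), comparisons that share the WT libraries.

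The core of the inositol element, CATGTG, was present in 65.0% of the 20 windows and in 6.91% of all windows. Of all genes with it, 28.6% were higher in P43L and 20.7% were lower, near the 22.3% and 23.1% of all tested genes. INO1 and ITR1 are shown because both carry it more than once and differ in their relation to WT. The lines run from base 300 to base 101 before the start codon, with the core or its reverse complement in capitals. ITR1 is from chrIV:1445568-1445767 and INO1 from chrX:136034-136233, both on the minus strand.
ITR1: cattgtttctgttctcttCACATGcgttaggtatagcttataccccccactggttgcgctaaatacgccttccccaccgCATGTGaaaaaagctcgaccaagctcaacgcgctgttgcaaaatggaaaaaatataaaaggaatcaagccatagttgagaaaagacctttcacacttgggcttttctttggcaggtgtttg
INO1: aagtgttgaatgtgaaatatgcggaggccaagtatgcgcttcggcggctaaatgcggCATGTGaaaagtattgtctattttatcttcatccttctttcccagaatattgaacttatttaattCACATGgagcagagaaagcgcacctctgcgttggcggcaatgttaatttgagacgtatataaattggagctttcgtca
The matches begin at bases -282 and -221 in ITR1 and at -243 and -178 in INO1.

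**Figure D4:**
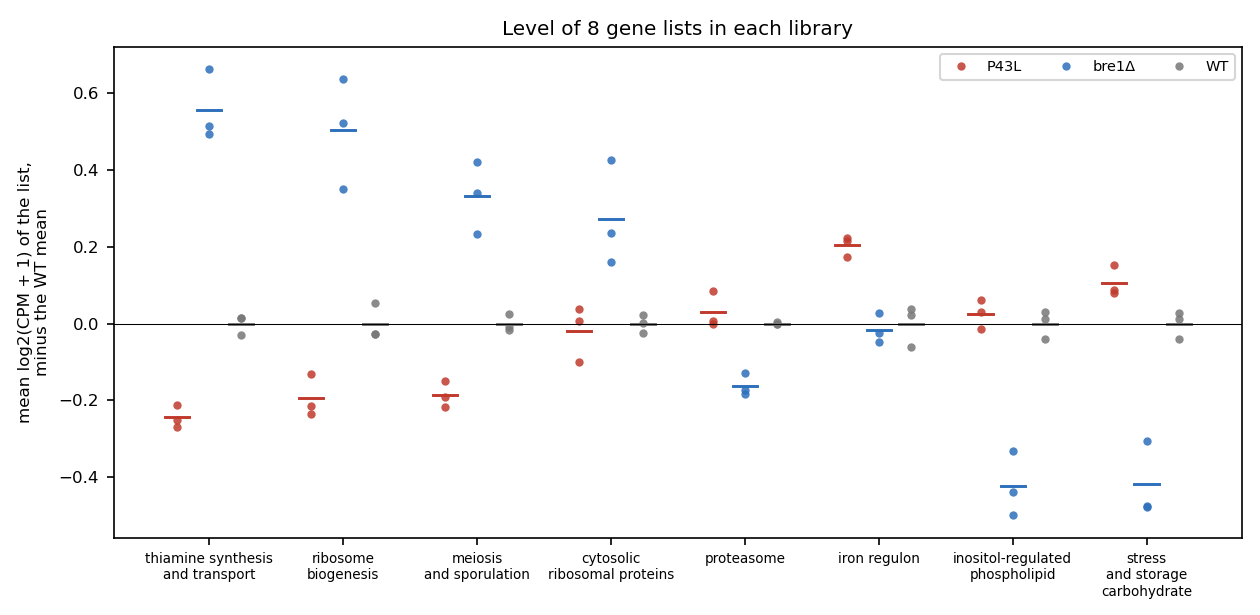
Mean log2(CPM + 1) over the members of 8 gene lists in each library, minus the mean of the 3 WT libraries. Points are libraries and bars are means of 3. The thiamine list lies between -0.27 and -0.21 in P43L and between 0.49 and 0.66 in bre1Δ, and the stress and storage list between 0.08 and 0.15 in P43L and between -0.48 and -0.31 in bre1Δ.

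Among meiotic genes, which growing haploid cells keep nearly silent, more were lower than higher in P43L. Of 59 in the table, 49 passed the filter, of which 24 were lower, a share of 49%, and 1 (2.04%) was higher (2 without P43L replicate 1 or bre1Δ replicate 1), with a median of -0.59. SPO75, needed for spore formation, had 1.15, 0.296 and 0.428 CPM in P43L, against 6.08, 4.67 and 4.74 CPM in bre1Δ (-2.98 ± 0.38, adjusted p = 2.58e-06, and -3.74 without P43L replicate 1). SPS1, a kinase of spore wall formation, had 2.54, 1.63 and 1.28 CPM in P43L, against 7.49, 7.64 and 7.11 CPM in bre1Δ (-2.03 ± 0.24, adjusted p = 9.55e-07). Summed over the list, P43L libraries held 305 to 315 CPM and bre1Δ libraries 374 to 426 CPM. Weakly expressed genes in general leaned the same way, with 28.7% lower and 8.26% higher in the lowest of the 5 bins by level. IME1, the master activator of meiosis, was among the lower genes (chosen after its value was seen), and its target kinase gene IME2 was not called, at 0.00.

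Among genes of the mating pathway, more were higher than lower in P43L. In alpha cells the pheromone signal runs from the receptor Ste3 through a G protein and a kinase cascade to Ste12, the activator of mating genes. Of 39 pheromone response and haploid-specific genes tested, 18 (46.2%) were higher and 6 (15.4%) were lower, with a median of 0.23, and 3 were lower without P43L replicate 2 and bre1Δ replicate 3. Of the separate list of 5 alpha-specific genes, 3 were higher and 2, MF(ALPHA)1 and MF(ALPHA)2, were not called, at 0.20 (adjusted p = 0.203) and 0.09 (adjusted p = 0.523). SAG1 of that list, the alpha-agglutinin at the cell surface, had 440, 411 and 477 CPM in P43L, against 207, 205 and 206 CPM in bre1Δ (1.10 ± 0.09, adjusted p = 6.48e-09). STE3, the receptor for a-factor and also of that list, had 362, 319 and 353 CPM in P43L, against 209, 252 and 244 CPM in bre1Δ (0.55 ± 0.08, adjusted p = 1.39e-05). SAG1 and STE3 did not overlap between the strains. In the pheromone list, STE12, FUS1 and FAR1, chosen after their values were seen, were higher by 0.63, 0.76 and 0.73. KAR4, a regulator of nuclear fusion genes, had 81.6, 85.8 and 77.0 CPM in P43L, against 48.8, 44.2 and 46.2 CPM in bre1Δ (0.81 ± 0.09, adjusted p = 3.43e-07). AGA1, the anchor subunit of a-agglutinin, had 24.4, 26.6 and 27.5 CPM in P43L, against 11.9, 10.5 and 12.8 CPM in bre1Δ and 11.3, 14 and 11.5 CPM in WT (1.17 ± 0.13, adjusted p = 6.07e-07). For AGA1 it was P43L that stood apart from WT. PRM5, a cell wall stress and pheromone gene, went the other way, with 44.6, 42.6 and 48.7 CPM in P43L, against 82.7, 74.6 and 86.3 CPM in bre1Δ (-0.83 ± 0.09, adjusted p = 1.52e-07).

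Among iron and proteasome genes, more were higher than lower in P43L. Of 32 tested genes of the iron regulon, which Aft1 activates when iron is scarce, 18 (56.2%) were higher and 3 (9.38%) were lower, with a median of 0.30, and 1 was lower without P43L replicate 3. FET3, the ferroxidase of high-affinity uptake, had 1122, 1028 and 1207 CPM in P43L, against 670, 627 and 737 CPM in bre1Δ and 923, 880 and 872 CPM in WT (0.72 ± 0.08, adjusted p = 8.11e-07). FIT3, a cell wall mannoprotein for siderophore iron, had 177, 177 and 202 CPM in P43L, against 112, 99.4 and 127 CPM in bre1Δ and 120, 103 and 104 CPM in WT (0.72 ± 0.09, adjusted p = 3.04e-06). FIT3 was at WT level in bre1Δ and above it in P43L, while FET3 was on either side of WT. Of 36 proteasome genes, 18 (50.0%) were higher in P43L and 0 were lower (1 without bre1Δ replicate 3), with a median of 0.21. RPN11, the deubiquitinase of the lid, had 155, 152 and 153 CPM in P43L, against 110, 115 and 106 CPM in bre1Δ (0.47 ± 0.07, adjusted p = 8.27e-06), and RPN4, the activator of proteasome genes, had 203, 236 and 218 CPM in P43L, against 183, 159 and 146 CPM in bre1Δ (0.43 ± 0.09, adjusted p = 0.000398).

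Nuclear genes of respiration were also more often higher, 20 of 50 (40.0%), with 3 lower and a median of 0.19, and 6 lower without P43L replicate 2 and bre1Δ replicate 3. NDI1, the internal NADH dehydrogenase, had 210, 197 and 234 CPM in P43L, against 143, 150 and 139 CPM in bre1Δ (0.57 ± 0.08, adjusted p = 4.21e-06). CYC1, the main cytochrome c, was lower, with 27.9, 30.6 and 30.0 CPM in P43L, against 46.8, 48.5 and 50.4 CPM in bre1Δ (-0.72 ± 0.08, adjusted p = 3.03e-07). ALD4, the mitochondrial aldehyde dehydrogenase, from the glycolysis and fermentation list, had 420, 340 and 433 CPM in P43L, against 177, 164 and 179 CPM in bre1Δ (1.2 ± 0.08, adjusted p = 7.52e-10). In that list, 5 of 28 genes (17.9%) were higher and 7 (25.0%) were lower. The lower ones were 4 without P43L replicate 2, P43L replicate 3 or bre1Δ replicate 3. Without bre1Δ replicate 3, 8 were higher, and without P43L replicate 2 as well, 10 were higher and 2 were lower. Mitochondrial ribosomal protein genes gave no steady direction: 18 of 79 (22.8%) were higher and 6 (7.59%) were lower. Without bre1Δ replicate 3, 11 were higher and 11 lower, and without bre1Δ replicate 1, 3 were lower.

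Among amino acid and sulfur genes, more were lower than higher in P43L. Of 59 genes of amino acid synthesis under Gcn4, the activator of this response, 22 (37.3%) were lower and 3 were higher, with a median of -0.16, and 5 were higher without bre1Δ replicate 3 and 8 without both this library and P43L replicate 2. With library totals alone, 14 were lower. ASN1, an asparagine synthetase, had 518, 425 and 489 CPM in P43L, against 762, 803 and 955 CPM in bre1Δ (-0.81 ± 0.10, adjusted p = 2.56e-06). GLN1, the glutamine synthetase, belongs to the nitrogen catabolite repression list, in which 7 of 33 genes (21.2%) were higher and 8 (24.2%) were lower. It had 917, 799 and 891 CPM in P43L, against 1436, 1603 and 1646 CPM in bre1Δ (-0.85 ± 0.09, adjusted p = 1.46e-07). ASN1 and GLN1 in P43L were below WT by 0.16 and 0.27 as fitted, against 0.65 and 0.57 above it in bre1Δ. Of 33 sulfur amino acid genes, 13 (39.4%) were lower and 4 were higher, with 8 lower and 7 higher without P43L replicate 2 and bre1Δ replicate 3, and 2 higher without bre1Δ replicate 1. MET10, a subunit of sulfite reductase, had 109, 99.1 and 109 CPM in P43L, against 146, 154 and 162 CPM in bre1Δ (-0.54 ± 0.07, adjusted p = 4.95e-06). Among 18 peptide import and N-degron genes, 7 (38.9%) were lower and 2 (11.1%) were higher. There were 4 lower without P43L replicate 3 and 1 higher without P43L replicate 1 or bre1Δ replicate 1 or 3. OPT2, an oligopeptide transporter, followed PTR2 with 30.8, 26.8 and 29.8 CPM in P43L, against 61.6, 61.1 and 59.8 CPM in bre1Δ (-1.06 ± 0.09, adjusted p = 1.08e-08).

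Genes of the H2B ubiquitination machinery, the step that Rad6 and Bre1 share, did not move together. Of 25 tested, 5 (20.0%) were higher in P43L and 4 (16%) were lower, against 22.3% and 23.1% of all tested genes. RAD6 and BRE1 are among the higher ones, and the strains differ at both by construction. There were 7 lower without bre1Δ replicate 1, 2 lower without bre1Δ replicate 2 or P43L replicate 2, and 3 higher without bre1Δ replicate 3. SWD1, a subunit of the Set1 complex, had 41.4, 43.6 and 40.3 CPM in P43L, against 26.7, 28.4 and 31.0 CPM in bre1Δ (0.55 ± 0.09, adjusted p = 4.96e-05). BRE2 and SDC1, of the same complex, were lower, by 0.43 and 0.39 on the log2 scale. LGE1, the partner of Bre1, had 17.6, 17.6 and 19.8 CPM in P43L, against 20.9, 20.7 and 17 CPM in bre1Δ, and its interval ran from -0.34 to 0.14. Among 12 genes for Rad6 partners outside H2B, 4 (33.3%) were higher and 2 (16.7%) were lower. Without P43L replicate 1 or 3 or bre1Δ replicate 1, 1 was lower. The higher ones were led by MUB1, a partner of Ubr2, at 0.51 ± 0.10 (adjusted p = 0.000181), and UBI4, a ubiquitin gene, at 0.41 ± 0.09 (adjusted p = 0.00102).

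Of the histone genes, HTA1, which encodes H2A, had 563, 546 and 526 CPM in P43L, against 339, 310 and 381 CPM in bre1Δ and 424, 399 and 423 CPM in WT (0.67 ± 0.11, adjusted p = 3.09e-05). HTB1, the gene beside it for H2B, the substrate of Rad6 and Bre1, had 391, 439 and 377 CPM in P43L, against 361, 343 and 374 CPM in bre1Δ, and was not called (0.16, 95% interval 0.01 to 0.32, adjusted p = 0.0862). HTB2, the second H2B gene, had 211, 231 and 203 CPM in P43L, against 161, 172 and 190 CPM in bre1Δ (0.30 ± 0.09, adjusted p = 0.00639), a call lost without P43L replicate 2 and bre1Δ replicate 1. The difference between HTA1 and HTB1 was not tested. Of 11 histone genes, 4 (36.4%) were higher and 1 (9.09%) was lower, against 2 higher and 0 lower without P43L replicate 2 and bre1Δ replicate 1. The lower gene, CSE4, lost its call without P43L replicate 1, bre1Δ replicate 1 or bre1Δ replicate 2.

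G1 genes separated P43L and bre1Δ little, although both strains were below WT at some of them. CLN1, a G1 cyclin, had 18.0, 20.3 and 18.7 CPM in P43L, against 19.5, 22.6 and 24.1 CPM in bre1Δ and 34.5, 34.6 and 35.4 CPM in WT. Against WT the log2 fold changes were -0.88 for P43L (adjusted p = 2.81e-05) and -0.66 for bre1Δ (adjusted p = 3.86e-05), from shared WT libraries. P43L and bre1Δ overlapped, and their log2 fold change of -0.21 had a 95% interval from -0.44 to 0.02. PCL1, a cyclin partner of Pho85, had 12.7, 10.8 and 13.3 CPM in P43L, against 15.1, 15.5 and 17.2 CPM in bre1Δ and 23.2, 25.0 and 29.4 CPM in WT (-0.36 ± 0.13, adjusted p = 0.0328), a call lost in several alternatives. CLN2 was not called, with an interval from -0.12 to 0.27. Of 36 G1 genes, 6 (16.7%) were higher in P43L and 5 (13.9%) were lower, with a median of -0.01. HO, the mating-type endonuclease, was the higher member with the lowest adjusted p, at 25.9, 21 and 22.9 CPM in P43L, against 8.76, 12.9 and 14 CPM in bre1Δ (0.99 ± 0.15, adjusted p = 1.77e-05).

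**Figure D5:**
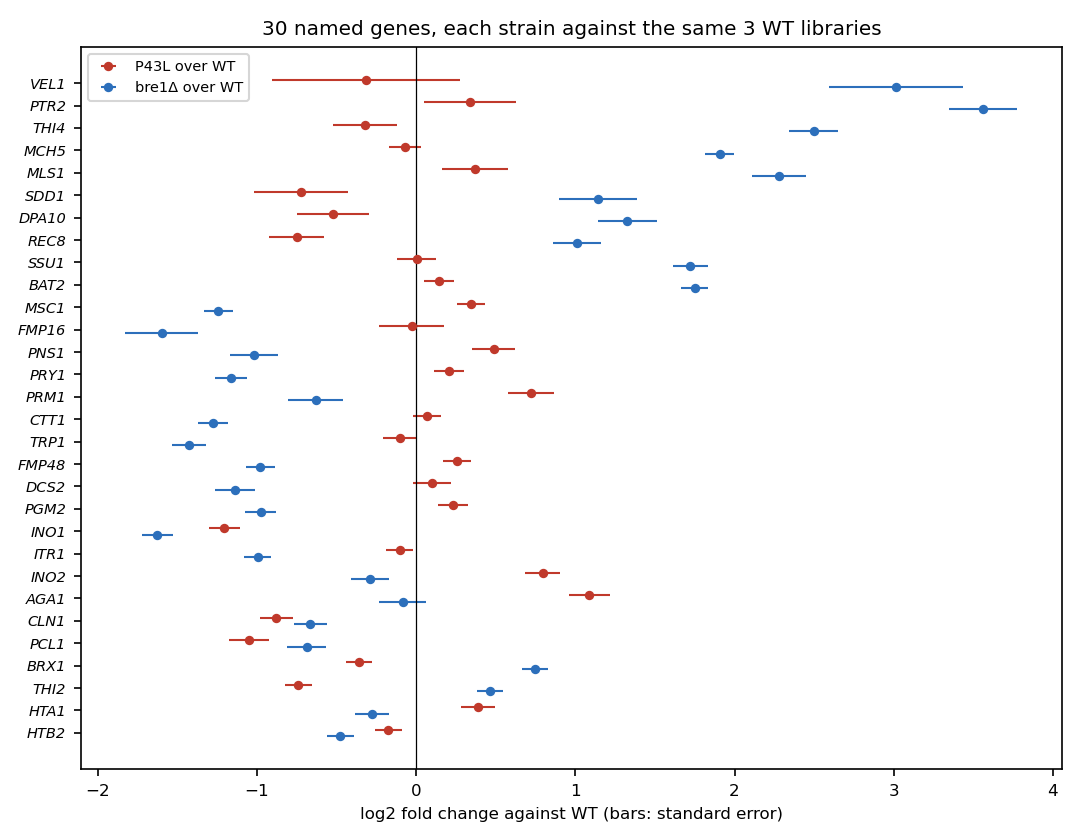
Log2 fold changes against WT for 30 named genes, P43L over WT (red) and bre1Δ over WT (blue), with standard error bars. Both comparisons use the same 3 WT libraries. PTR2, THI4 and MCH5 lie near 0 in P43L and from 1.91 to 3.56 in bre1Δ, and INO1, CLN1 and PCL1 lie below 0 in both strains.

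In comparisons with WT that share the WT libraries, 683 genes (12.1%) were called in P43L and 2501 (44.4%) in bre1Δ. Among the 153 genes called and at least 2-fold lower in P43L than in bre1Δ, 25 were called in P43L against WT and 131 in bre1Δ against WT. Among the 28 at least 2-fold higher, BRE1 included, 11 and 23 were called in that order. These counts describe sets chosen by the same libraries and are not a test.

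Of 86 tested nuclear noncoding genes, 1 was higher in P43L and 15 were lower. Of all tested genes, 22.3% were higher and 23.1% were lower. Small nucleolar and nuclear RNAs, which are not polyadenylated, had 14 of 77 lower, a share of 18.2% that is below that of all tested genes. There were 25 lower without P43L replicate 2, and 9 without P43L replicate 3 or without bre1Δ replicate 2. Their summed level was 99552 to 149977 CPM in P43L and 126001 to 158643 CPM in bre1Δ, ranges that overlap. Of 28 tested mitochondrial genes, 4 (14.3%) were higher and 7 (25.0%) were lower, and 3 were lower without P43L replicate 3. Without P43L replicate 1 or bre1Δ replicate 2, 4 were lower, and 2 were higher when any 1 of the libraries other than P43L replicate 3 was left out. Without P43L replicate 2 and either bre1Δ replicate 1 or bre1Δ replicate 3, 1 was higher. Overlap among intron-encoded mitochondrial genes makes their single values uncertain.

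Of 30 genes of the glyoxylate cycle, gluconeogenesis and fatty acid use, 11 (36.7%) were lower and 4 (13.3%) were higher, with a median of -0.23 and with 7 lower without P43L replicate 2 and bre1Δ replicate 3. Of 21 amino acid permease genes, 9 (42.9%) were higher and 4 (19.0%) were lower, with a median of 0.07, but 4 were higher without P43L replicate 1 or bre1Δ replicate 1, and 5 without P43L replicate 3. Leaving out P43L replicate 1, P43L replicate 2 or bre1Δ replicate 2 gave 2 lower permease genes, and leaving out P43L replicate 2 with bre1Δ replicate 1 or 3 gave 1. Stress chaperones had 7 of 31 (22.6%) higher and 7 (22.6%) lower, with 11 lower without bre1Δ replicate 1. HSP42, a small heat shock protein, had 639, 708 and 718 CPM in P43L, against 540, 433 and 411 CPM in bre1Δ (0.58 ± 0.10, adjusted p = 4.50e-05), while SSA2, a constitutive Hsp70, had 779, 705 and 790 CPM in P43L, against 1144, 1308 and 1524 CPM in bre1Δ (-0.81 ± 0.10, adjusted p = 1.86e-06). Phosphate genes had 6 of 28 (21.4%) higher and 9 (32.1%) lower. PHO5, the secreted acid phosphatase, had 23.9, 23.1 and 26.5 CPM in P43L, against 35.6, 33.7 and 37.3 CPM in bre1Δ (-0.53 ± 0.10, adjusted p = 0.000257). Genes within 20 kb of a chromosome end had 25 of 122 (20.5%) higher and 33 (27.0%) lower, against 22.3% and 23.1% of all tested genes. Among DNA damage genes, 9 of 33 (27.3%) were higher and 8 (24.2%) were lower. Without P43L replicate 1 or bre1Δ replicate 1, 5 were higher. MAG1, a DNA glycosylase, had 44.4, 45.9 and 43.7 CPM in P43L, against 25.7, 25.6 and 18.6 CPM in bre1Δ (0.91 ± 0.10, adjusted p = 2.85e-07), and RNR3, a damage-induced subunit of ribonucleotide reductase, had 9.45, 11.7 and 11.9 CPM in P43L, against 14, 17.2 and 18.2 CPM in bre1Δ (-0.58 ± 0.14, adjusted p = 0.00191). Galactose genes had 2 of 9 (22.2%) higher and 3 (33.3%) lower, with 1 higher without P43L replicate 1 or bre1Δ replicate 2. The medians of the chaperone, phosphate, DNA damage, G1 and H2B lists were within 0.04 of 0 and changed sign under library totals alone.

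Where no difference was called, the data bounded it. The 95% interval lay within 2-fold in either direction for 2936 of the 3077 genes not called (95.4%), and within 0.5 on the log2 scale for 2440 of them (79.3%).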

How the data were processed

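Raw counts as the authors deposited them (reads per gene, whole numbers) covered 18 poly(A)-selected, stranded, single-read libraries, per the labels' protocols. Tools named in the submitters' processing notes are cutadapt 1.16, STAR 2.6.1b, featureCounts 1.6.3 and DESeq2 1.20, with the builds R64 and sacCer3. Use of strand in counting, and treatment of reads that map to several places, were not given in the sources used here, so values of overlapping or near-identical genes are uncertain. The deposited rlog values were not used.

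Of 5746 genes, 5633 were matched to the R64 annotation of RefSeq by locus tag and 91 by symbol, and 22 were not matched. No per-sample column was left unused in the count table. The test was edgeR 4.0.16's quasi-likelihood test, run in R 4.3.3 (filterByExpr, TMM, robust quasi-likelihood fit of all 18 libraries, 12 residual degrees of freedom, two-sided), with Benjamini-Hochberg adjustment over 5630 genes and a threshold of 0.05. The biological coefficient of variation was 8.55%. Errors on log2 fold changes are standard errors. Every pair of libraries of P43L or bre1Δ differed beyond sampling noise, with chi-square values per degree of freedom of 6.58 to 38.7, and each was counted as a replicate. Replicates are separate cultures, per the labels. The script was tested on simulated counts.

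Named genes were RAD6, BRE1 and their neighbours, and the 10 highest and 10 lowest fold changes among called genes with at least 10 CPM in the higher strain, no overlap and a symbol of their own. They also include up to 4 members of each list with the lowest adjusted p, and a fixed set (INO1, CUP9, UBR1, CLN1, HTB1 and others). The members, lists, naming rule and motifs were chosen with earlier results of these data known. Sequences are RefSeq R64. Alternatives tried were RLE scaling, library totals alone, other count filters, the 6 libraries alone, a replicate block, DESeq2 1.42.0, leaving out noncoding and mitochondrial genes, and leaving out each library. After seeing the data, 3 more were added: leaving out either of 2 pairs of libraries, and the block with the 6 libraries alone.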

Additional observations from a re-analysis of the deposited data

How the results depend on the processing

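The 2553 called genes became 2176 to 2498 when 1 of the 6 libraries was left out, 2410 without P43L replicate 2 and bre1Δ replicate 3, and 2368 without P43L replicate 2 and bre1Δ replicate 1, both chosen after seeing the data. They became 2562 with RLE scaling, 2420 with library totals alone, 2589 with no count filter, 2572 with a mean of at least 10 counts, 1985 with the 6 libraries alone, 2567 without noncoding and mitochondrial genes, and 2520 with DESeq2. No gene called in the main analysis was called in the opposite direction under any of these. The replicate numbers were not taken to pair the samples. The correlations of same-numbered deviations were -0.461, -0.21 and 0.209, and those of differently numbered ones ran from -0.386 to 0.547. The highest was that of P43L replicate 2 with bre1Δ replicate 1. With the replicate number as a block 2468 genes were called. With the block and the 6 libraries alone, added later, 1715 genes were called and 800 were higher in P43L, against 1253 in the main analysis and 941 with the 6 libraries alone. The cause was not tested. Library totals alone moved the number of lower genes by over 1.5 times in these lists: 14 under Gcn4, 7 of the glyoxylate list against 11, 4 of peptide import, 3 of the pheromone list, 3 mitochondrial, 3 mitochondrial ribosomal, 2 of the H2B machinery, 2 of amino acid permeases, 1 of ergosterol synthesis, 1 of respiration, 1 of Rad6 partners outside H2B and 0 of the histone genes. Of 162 named genes that were called, 18 lost the call in at least 1 alternative, and no named gene reversed. Genes with few counts limit the precision: 116 did not pass the filter.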
